A study of Mus musculus with 4 samples.

Results

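The genes for voltage-gated calcium channel subunits, voltage-gated sodium channel subunits and the hyperpolarization-activated pacemaker (HCN) channels were examined in RNA-seq of mouse hearts at postnatal day 7 (P7). They were chosen by name as the autosomal protein-coding genes whose symbols begin with *Cacna*, are *Cacnb* or *Cacng* followed by a number, are *Scn* followed by a number and a or b, or are *Hcn* followed by a number. The 40 described here, of the 24454 genes in the table, comprise 21 for pore-forming subunits and 19 for auxiliary subunits. The rule uses no measured value, and 24 of the 40 had enough reads to be tested. *Cacna1f*, which matches the pattern, lies on the X chromosome and was left out, with 1, 1, 1 and 3 counts in the libraries WH7, WH8, WH9 and WH10.

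The study looked here for targets of *miR-128* that act on the cell cycle, and compared Ctrl hearts (libraries WH7 and WH8) with hearts that overexpress *miR-128* (miR-128OE, libraries WH9 and WH10). All mice were on a C57BL/6 background and, by the study's methods, carried *miR-128* knocked into Rosa26 under a tetracycline-responsive promoter (miR-128TetRE). The miR-128OE mice in addition carried α-MHC-tTA, a transactivator that the cardiomyocyte α-myosin heavy chain promoter drives and doxycycline keeps inactive. Ctrl mice lacked it, so effects of the transactivator itself and of *miR-128* cannot be told apart, and the doxycycline schedule of these hearts is not given in the sources used here. The labels do not say whether a library is from a single heart or a pool. P-values therefore measure the spread between these libraries, which may be technical.

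The libraries held 12385863 (WH7), 8096870 (WH8), 12440553 (WH9) and 14359838 (WH10) counts. A floor of 3 counts, under which a gene cannot be called present, corresponds to 0.242, 0.371, 0.241 and 0.209 CPM (counts scaled by library total) in that order. Normalized counts here are the counts of a gene scaled to a common library size, after a correction for library composition (TMM). The libraries of a group were not duplicates, since their counts differed by a chi-square of 9.91 per degree of freedom for Ctrl and 4.82 for miR-128OE, against 34.2 to 43.7 between groups. Of the genes that encode *miR-128*, *Mir128-1* was at 0 in all libraries, and *Mir128-2* was at 0 and 0 in Ctrl and at 2 and 10 counts in miR-128OE. The mature miRNA was not measured in this table. The condition coincided with sex, because *Xist* read 14543 and 11339 in Ctrl beside 94 and 132 in miR-128OE, and the Y-linked *Ddx3y* read 13 and 7 beside 1442 and 1768. Genotype and sex cannot be told apart here.

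The Ctrl libraries also stood apart from each other in atrial genes. Of 9 atrial marker genes, 8 were highest in WH7 and lowest in WH8, an order seen in 5.20% of all tested genes. The summed atrial markers came to 73231, 9734, 27957 and 35261 normalized counts in WH7, WH8, WH9 and WH10, and *Nppa*, the atrial natriuretic peptide gene and most abundant of them, to 31104, 2746, 5165 and 10838. None of the 9 passed the test between the groups (edgeR's quasi-likelihood test), 0 had an unadjusted p under 0.05 and 0 passed with DESeq2. None was at 0 in a library. *Bmp10*, the marker that did not follow the order above, had 50, 2, 4 and 119 counts. It was highest in WH10, differed within both groups and was under the floor of 3 counts in WH8. Which parts of the heart entered each library is not given in the sources used here, and the part of the atrial genes in the results below was not tested.

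**Figure D1:**
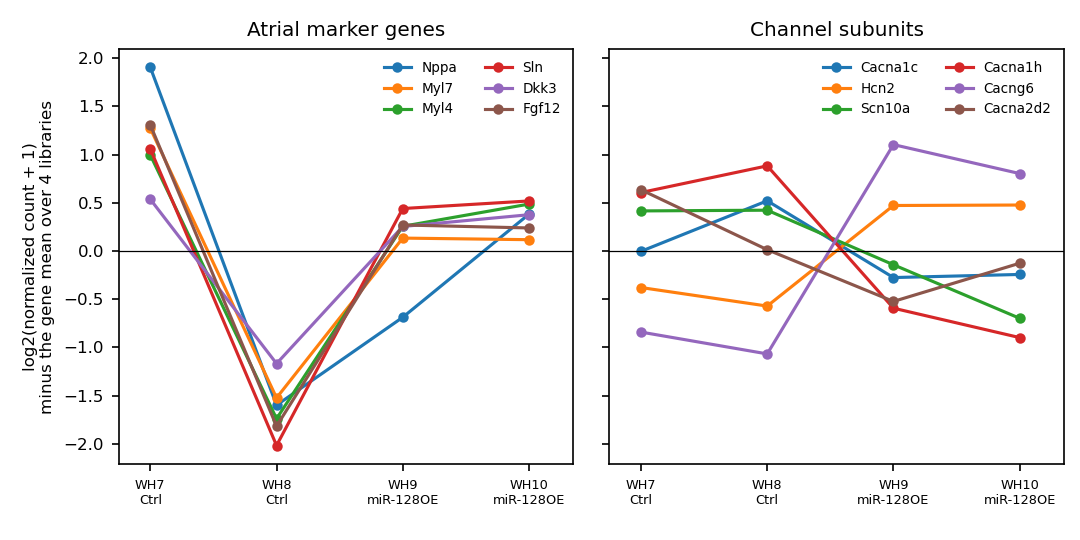
Atrial marker genes (6 of the 9, left) and 6 channel subunits (right) in the 4 P7 heart libraries. Each line is a gene, the y axis is log2(normalized count + 1) minus the gene's mean over the 4 libraries, and the plotted atrial genes peak in WH7 and drop in WH8.

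Voltage-gated calcium and sodium channels consist of a large pore-forming α subunit with smaller auxiliary subunits that set its trafficking and gating. HCN subunits form the pore of HCN channels. In heart muscle the sodium channel starts the action potential, the L-type calcium channel brings in the calcium that triggers contraction, and T-type calcium and HCN channels are known for pacemaking. T-type and HCN channels are abundant in fetal ventricles and recede after birth.

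Of the 24 subunits tested, 3 were higher and 7 were lower in miR-128OE hearts (edgeR's quasi-likelihood test, Benjamini-Hochberg adjusted p under 0.05 over 14266 genes). These were 12.5% and 29.2% of the tested subunits, beside 16.5% of all tested genes that were higher and 15.0% that were lower. The count of lower subunits depended on the test. With DESeq2, 3 of 23 subunits with an adjusted p were higher and 2 were lower (8.70%), beside 9.60% of 13755 genes that were lower. With an offset for GC content and length in edgeR, 4 of 24 were higher and 4 lower (16.7%), beside 12.9% of 14164 genes that were lower. The 3 higher genes were *Cacng6*, *Hcn2* and *Cacna2d1*. The 7 lower genes were *Cacna1h*, *Scn2b*, *Scn3a*, *Scn10a*, *Cacna2d2*, *Cacna1c* and *Cacnb2*. The median log2 fold change was −0.06 over the tested subunits and −0.01 over all tested genes. The libraries of the groups did not overlap for 19 of the 24 (79.2%), beside 68.1% of all tested genes. Left out in turn, WH7 gave 3 higher and 8 lower subunits, WH8 3 and 6, WH9 2 and 2, and WH10 2 and 3, where all genes gave 2654 and 2384, 2488 and 2076, 897 and 667, and 1265 and 1020, with the remaining library of the group assumed to vary like the others. A lower value in these heart libraries can reflect fewer cells of a type or less RNA per cell, which cannot be told apart.

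**Figure D2:**
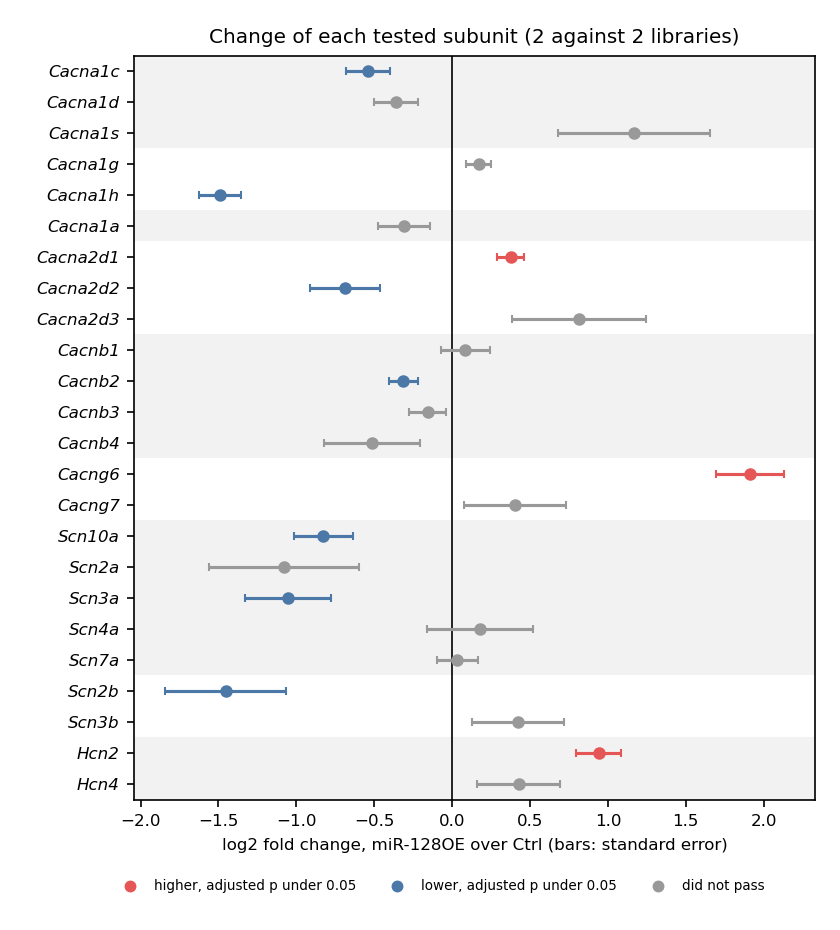
Log2 fold change of each tested subunit, miR-128OE over Ctrl, with 2 libraries per group and bars for the standard error. Red marks the 3 subunits that were higher, blue the 7 that were lower at an adjusted p under 0.05 and grey the 14 that did not pass, and the values run from −1.49 (*Cacna1h*) to 1.91 (*Cacng6*).

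A microRNA recognizes messages mainly through its seed, so the overexpressed miRNA is shown first. The mature miR-128-3p, 21 bases long, is encoded at chr1:128202404-128202424 (plus strand) and chr9:112118644-112118664 (minus strand) of GRCm38.p6, with the sequence taken from RefSeq and the seed (bases 2 to 8) in capitals.
miR-128-3p: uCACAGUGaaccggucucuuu

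Matches to the seed were searched as CACTGTG or ACTGTGA, on the sense strand of every gene's longest 3′UTR in the annotation. A CACTGTG followed by A holds both motifs and is called an 8mer. The windows of 28 bases below are those of the lower subunits that carry a match and of *Cacna2d1*, the higher subunit that carries one, each with its GRCm38 position and the match in capitals. Another 6 tested subunits carry a match and did not pass the test, and their values follow the windows.
Cacna1h (chr17:25375180-25375207, minus): aaggagcaaggactgtacctCACTGTGc
Cacna1c (chr6:118589587-118589614, minus): ctggccctgggatgcccctcCACTGTGt
Scn3a (chr2:65457765-65457792, minus): aaatcctaagtgttttaaagCACTGTGA
Scn2b (chr9:45129056-45129083, plus): tctgtgagatggggtgagaaACTGTGAg
Scn2b (chr9:45129777-45129804, plus): tatgcccaccccaaaagttaCACTGTGg
Cacnb2 (chr2:14987287-14987314, plus): agcaaacatgggcatcttgtACTGTGAg
Cacna2d1 (chr5:16371282-16371309, plus): tctgccaaaaacaaaacacaACTGTGAc

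At least 1 match was present in 12 of the 24 tested subunits (50%), beside 4181 of 13496 tested genes with an annotated 3′UTR (31.0%). The share was 5 of 7 among the lower subunits (71.4%), 1 of 3 among the higher ones (33.3%) and 6 of 14 among those that did not pass (42.9%). Over all genes it was 655 of 1984 lower genes, 655 of 2286 higher genes (28.7%) and 2871 of 9226 of those that did not pass (31.1%). The 6 subunits with a match that did not pass had log2 fold changes of 0.82 (*Cacna2d3*), 0.43 (*Hcn4*), 0.42 (*Scn3b*), 0.03 (*Scn7a*), −0.31 (*Cacna1a*) and −0.51 (*Cacnb4*), 4 above 0 and 2 below. An 8mer was rarer, in 1 of the 24 (4.17%, *Scn3a*) beside 6.03% of all tested genes. The 3′UTRs of the tested subunits were longer, with a median of 1825 bases against 1199 over all, and the shares were not matched for length. The median was 1879 bases for the lower subunits and 1255.5 for all lower genes. *Scn10a* and *Cacna2d2* fell without a match in these 3′UTRs, and *Cacng6* and *Hcn2* rose without one. A match is a description of the sequence, and binding of the miRNA was not measured.

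Among the L-type pores, *Cacna1c* was lower in miR-128OE hearts, and *Cacna1d* and *Cacna1s* did not pass the test. *Cacna1c* (Entrez Gene 12288, chr6:118587240-119196418) encodes CaV1.2, the L-type pore of heart muscle. It had 4150 and 5967 normalized counts in WH7 and WH8 and 3437 and 3514 in WH9 and WH10. The Ctrl libraries were both above the miR-128OE libraries but far from each other. The log2 fold change was −0.54 ± 0.14 (SE; edgeR adjusted p = 0.0192), or 31.2% lower. The size rested on WH8, since the change was −0.25 without it and −0.78 without WH7. The call was lost with DESeq2 (log2 fold change −0.53, adjusted p = 0.131) and with an offset that corrects for gene GC and length (−0.39, adjusted p = 0.058), within a range from 2.32e-07 to 0.131 over 10 other scalings, filters and tests, and when WH9 or WH10 was left out (−0.51 and −0.54, edgeR adjusted p = 0.128 and 0.0942).

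*Cacna1d*, which encodes CaV1.3, the L-type pore of the sinoatrial node and atria, had 210 and 236 normalized counts in Ctrl and 178 and 168 in miR-128OE. The groups did not overlap, but the difference did not pass the test (log2 fold change −0.36 ± 0.14 (SE), edgeR adjusted p = 0.0768). It passed without WH7 (edgeR adjusted p = 0.0445), with upper-quartile factors (edgeR adjusted p = 0.049) and with total counts (edgeR adjusted p = 0.0312), within a range from 0.0312 to 0.306 over the 10 settings. *Cacna1s*, which encodes the skeletal muscle pore CaV1.1, stood at 8, 4, 17 and 16 counts and was the only tested subunit to pass the filter on low counts through the libraries of 1 group alone (edgeR adjusted p = 0.098). Exons of *Cacna1d* overlap 589 bases of *Chdh* on the opposite strand, and *Chdh* had 16, 4, 4 and 11 counts. *Cacna1a*, the P/Q-type pore known from neurons, had 154 and 177 normalized counts in Ctrl and 122 and 143 in miR-128OE, with a log2 fold change of −0.31 ± 0.17 (SE) that did not pass the test.

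Of the T-type pores, *Cacna1h* was lower in miR-128OE hearts. *Cacna1h* (Entrez Gene 58226, chr17:25374285-25433783) encodes CaV3.2, which opens at low voltage. It had 715 and 866 normalized counts in Ctrl and 311 and 251 in miR-128OE. Both miR-128OE libraries lay well under both Ctrl libraries. The gene was 64.4% lower, with a log2 fold change of −1.49 ± 0.13 (SE; edgeR adjusted p = 0.000112), and it stayed between −1.63 and −1.32 under each left-out library and each other setting. With all libraries it had the lowest log2 fold change of the 24 tested subunits, within 1 SE of *Scn2b*, which was lower without WH10 (−2.10 beside −1.32 for *Cacna1h*). Its exons share 158 bases with *Tpsg1* on the opposite strand, which had 1 count in each library.

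*Cacna1g* (chr11:94408391-94474198), which encodes the other cardiac T-type pore, CaV3.1, did not pass the test. Its normalized counts were 1333 and 1427 in Ctrl and 1591 and 1513 in miR-128OE, with a log2 fold change of 0.17 ± 0.08 (SE; edgeR adjusted p = 0.137). It passed with the GC and length offset (log2 fold change 0.26, adjusted p = 0.0438, within a range from 0.0438 to 0.516 over the 10 settings). *Cacna1i*, for the neuronal T-type pore, was not tested, with 3, 3, 3 and 4 counts.

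Levels of different genes were compared per kilobase of exon, as normalized counts divided by the length of all annotated exons. On that scale *Cacna1h* made up 35.7% and 38.6% of the summed T-type level in WH7 and WH8 and 16.8% and 14.7% in WH9 and WH10. *Cacna1g* made up the rest almost entirely, from 64.1% and 61.2% in Ctrl to 83.0% and 85.1% in miR-128OE. The sum of the family was 218 per kilobase in Ctrl and 182 in miR-128OE. With 2 libraries against 2, an exact two-sided permutation test cannot go below p = 0.33, so shares are given as a description.

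**Figure D3:**
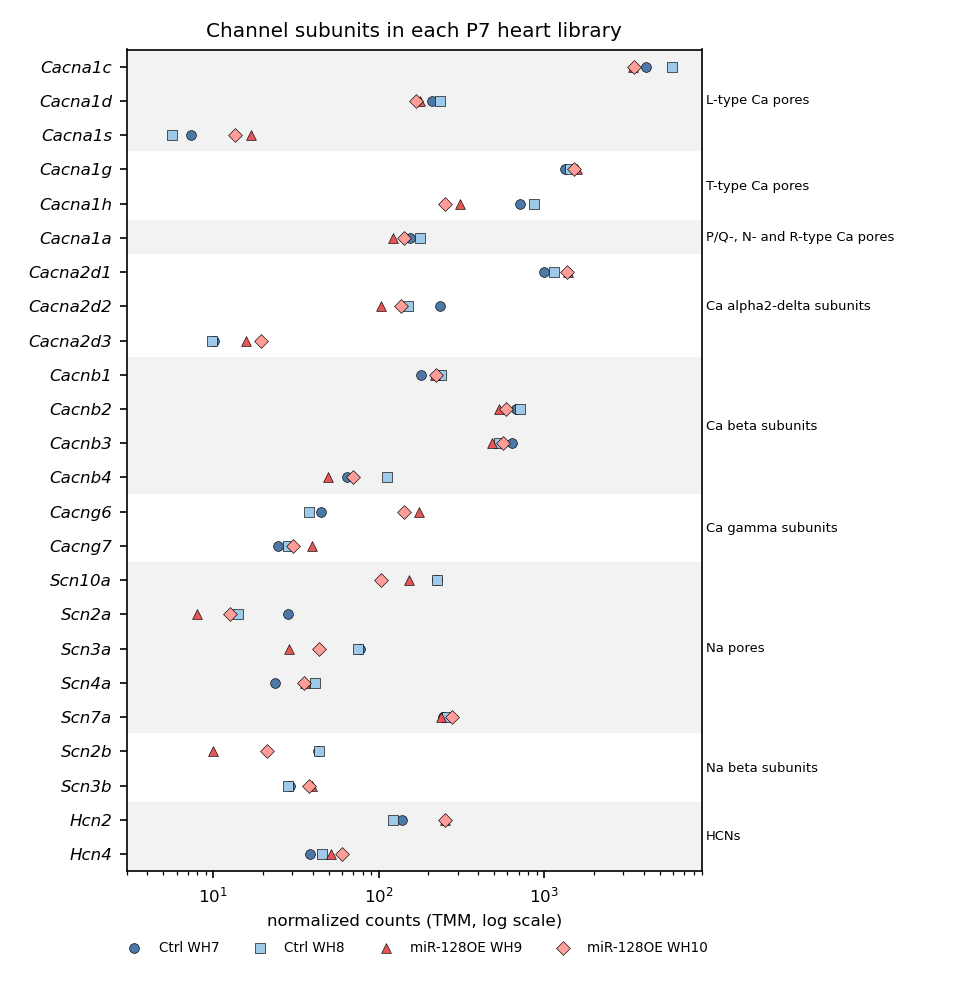
Normalized counts (x axis, log scale) of the 24 tested subunits in each library, grouped by family. Circles and squares are the Ctrl libraries and triangles and diamonds the miR-128OE libraries, and *Cacna1h*, *Cacng6* and *Hcn2* show the groups apart with a narrow spread within each.

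Of the 5 tested sodium channel pores, 2 were lower in miR-128OE hearts (*Scn10a* and *Scn3a*) and none was higher by edgeR (0 at an unadjusted p under 0.05, 0 with DESeq2), where 15.0% of all tested genes were lower and 16.5% higher. *Scn10a* (Entrez Gene 20264, chr9:119608456-119719322) encodes NaV1.8, known from sensory neurons, and the locus is known in cardiac conduction. It had 225 and 226 normalized counts in Ctrl and 152 and 103 in miR-128OE. Ctrl libraries matched closely and both miR-128OE libraries were lower, with a log2 fold change of −0.83 ± 0.19 (SE; edgeR adjusted p = 0.00965). Without WH10 it was −0.55 and did not pass (edgeR adjusted p = 0.088). *Scn11a*, the next gene on that chromosome, was not tested, with 5, 4, 2 and 4 counts.

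The remaining sodium channel pores include a cluster on chromosome 2. There 1 of the 3 tested genes passed and was lower, beside 15.0% of all tested genes that were lower and 16.5% that were higher. *Scn3a* (Entrez Gene 20269, chr2:65457118-65567627), for NaV1.3 of the developing nervous system, had 76.8 and 74.9 normalized counts in Ctrl and 28.7 and 43.7 in miR-128OE. Its log2 fold change was −1.05 ± 0.28 (SE; edgeR adjusted p = 0.0184), with no overlap between the groups. The call was lost with DESeq2 (log2 fold change −1.05, adjusted p = 0.0609, within a range from 0.001 to 0.0609 over the 10 settings) and without WH9 (log2 fold change −0.78, edgeR adjusted p = 0.163).

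*Scn2a*, the adjacent neuronal pore gene, stood at 31, 10, 8 and 15 counts and did not pass (log2 fold change −1.08 ± 0.48 (SE), edgeR adjusted p = 0.116). The value rested on WH7, since it was −0.44 without that library (edgeR adjusted p = 0.673). *Scn7a*, for the sodium-sensing channel Nax, lies in the same cluster and had 246 and 259 normalized counts in Ctrl and 239 and 276 in miR-128OE, a log2 fold change of 0.03 ± 0.13 (SE). Its libraries overlapped, and the value was −0.01 with upper-quartile factors and −0.07 with total counts. *Scn4a*, for the skeletal muscle pore NaV1.4, had 26, 29, 36 and 42 counts and did not pass (log2 fold change 0.18, and −0.21 without WH7). The pores *Scn1a*, *Scn8a* and *Scn9a* had too few reads to be tested, between 0 and 7 counts in a library.

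The sodium channel β subunits are small proteins that tune gating and anchor the channel. *Scn2b* (Entrez Gene 72821, chr9:45117782-45130070) was lower in miR-128OE hearts. It had 43.0 and 43.8 normalized counts in Ctrl and 9.90 and 21.03 in miR-128OE. It fell by 1.45 on the log2 scale (SE 0.39; edgeR adjusted p = 0.0195), from 47 and 31 counts to 10 and 25. The call was lost with DESeq2 (log2 fold change −1.46, adjusted p = 0.0629, within a range from 0.000966 to 0.0629 over the 10 settings) and without WH9 (log2 fold change −1.03, edgeR adjusted p = 0.167). *Scn4b*, which lies beside it on chromosome 9, was at 0 in both Ctrl libraries and at 8 and 3 counts in miR-128OE. It was not tested, and WH10 lay at the floor of 3 counts. *Scn3b* had 32, 20, 40 and 45 counts and did not pass (log2 fold change 0.42 ± 0.30 (SE), edgeR adjusted p = 0.306).

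**Figure D4:**
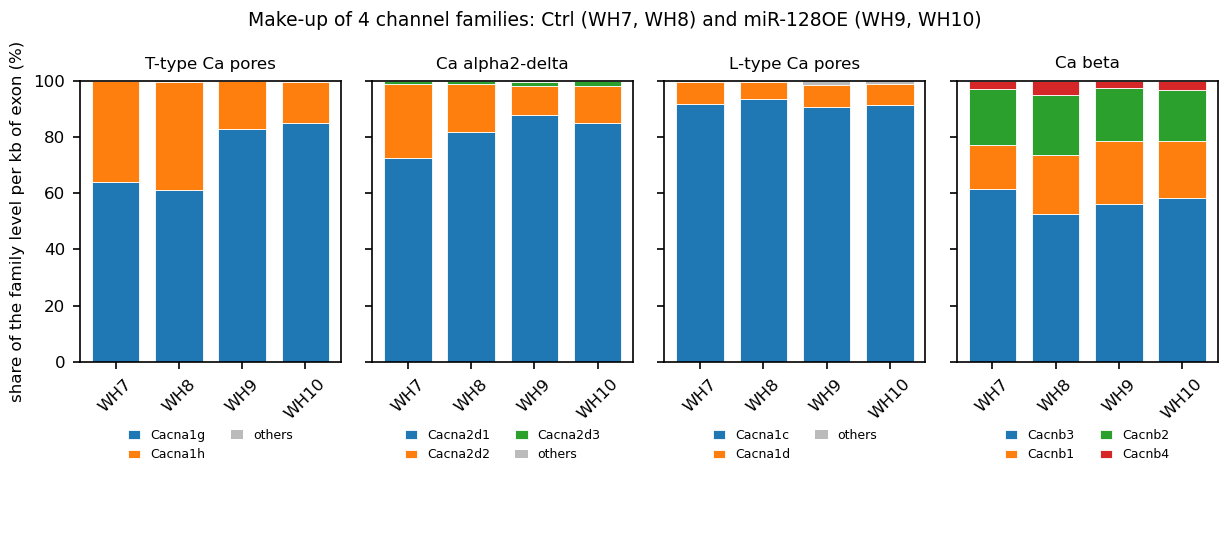
Share of each gene (y axis, %) in the summed level of its family per kilobase of exon, in each library (Ctrl, WH7 and WH8; miR-128OE, WH9 and WH10). *Cacna1h* goes from 35.7% and 38.6% of the T-type level to 16.8% and 14.7%, and *Cacna2d2* from 26.5% and 16.9% of the α2δ level to 10.3% and 13.2%, whereas *Cacna1c* holds 90.7% to 93.5% of the L-type level.

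*Hcn2*, which encodes a pore of the hyperpolarization-activated pacemaker current, was higher in miR-128OE hearts. *Hcn2* (Entrez Gene 15166, chr10:79716634-79736108) had 139 and 122 normalized counts in Ctrl and 251 and 252 in miR-128OE. Both miR-128OE libraries lay at nearly the same level, above both Ctrl libraries. The change was 1.92-fold (log2 fold change 0.94 ± 0.14 (SE), edgeR adjusted p = 0.00134), and it passed under each left-out library and each of the 10 settings.

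*Hcn4*, the main pacemaker channel of the sinoatrial node, had 42, 32, 52 and 71 counts. The groups did not overlap after normalization, but the difference did not pass (log2 fold change 0.43 ± 0.27 (SE), edgeR adjusted p = 0.251). *Hcn3* was not tested, with 7, 4, 3 and 10 counts, and shares 711 exon bases with *Pklr* on the opposite strand, which had at most 1 count in a library.

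The largest rise among the 24 was in *Cacng6* (Entrez Gene 54378, chr7:3424195-3435667), which encodes a γ subunit of the type that associates with voltage-gated calcium channels in muscle. It had 44.8 and 38.2 normalized counts in Ctrl and 175 and 142 in miR-128OE. The groups were far apart. The rise was 3.76-fold (log2 fold change 1.91 ± 0.22 (SE), edgeR adjusted p = 0.000333), and it passed under each left-out library and each of the 10 settings, between 1.77 and 2.08 on the log2 scale. Its neighbours on chromosome 7 did not pass or were not tested. *Cacng7* had 27, 20, 40 and 36 counts and did not pass (log2 fold change 0.40 ± 0.33 (SE)), and *Cacng8* was at 0 in all libraries.

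The other γ subunits were near the floor. *Cacng2*, of the neuronal type, was at 0 throughout, and *Cacng3* and *Cacng5* had 0 to 6 counts in a library. *Cacng4* was at 0 in both miR-128OE libraries, beside 5 and 3 counts in Ctrl. *Cacng1*, the skeletal muscle γ subunit, was at 0 in both Ctrl libraries and at 5 and 1 counts in miR-128OE, so that WH9 alone was above the floor of 3 counts.

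Among the α2δ subunits, extracellular proteins that bring the channel to the membrane, *Cacna2d1* was higher and *Cacna2d2* lower. *Cacna2d1* (Entrez Gene 12293, chr5:15934691-16374511) had 999 and 1143 normalized counts in Ctrl and 1388 and 1384 in miR-128OE. The libraries of the groups did not overlap, and those of miR-128OE were close to each other. The log2 fold change was 0.38 ± 0.09 (SE; edgeR adjusted p = 0.0117), and the call was lost without WH9 (edgeR adjusted p = 0.0935) and without WH10 (edgeR adjusted p = 0.072) at a change of 0.39 in either.

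*Cacna2d2* (Entrez Gene 56808, chr9:107399612-107529343) had 233 and 151 normalized counts in Ctrl and 104 and 137 in miR-128OE. Its exons share 82 bases with *Gm17141* on the opposite strand. WH7 was high, and WH8 was only slightly above WH10. The log2 fold change was −0.69 ± 0.22 (SE; edgeR adjusted p = 0.0417). Without WH7 it was −0.32 (edgeR adjusted p = 0.284), without WH9 −0.49 (edgeR adjusted p = 0.27) and without WH10 −0.89 (edgeR adjusted p = 0.0641). The call was also lost with DESeq2 (log2 fold change −0.67, adjusted p = 0.0834) and with the GC and length offset (−0.60, adjusted p = 0.0623), within a range from 0.000467 to 0.0834. *Cacna2d3* had 11, 7, 16 and 23 counts and did not pass (log2 fold change 0.82, edgeR adjusted p = 0.179), and *Cacna2d4* had 0, 1, 3 and 0. Per kilobase, *Cacna2d1* took 72.5% and 81.9% of the α2δ level in Ctrl and 88.0% and 85.1% in miR-128OE, and *Cacna2d2* took 26.5% and 16.9% in Ctrl and 10.3% and 13.2% in miR-128OE.

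Of the 4 calcium channel β subunits, which bind the pore inside the cell, *Cacnb2* alone passed the test. Lower genes were thus 25% of the family, beside 15.0% of all tested genes, of which 16.5% were higher. *Cacnb2* (Entrez Gene 12296, chr2:14603088-14987908), the partner of the cardiac L-type pore, had 680 and 718 normalized counts in Ctrl and 537 and 585 in miR-128OE. Its exons share 111, 618 and 239 bases with *Gm10848*, *Gm10849* and *Gm13269* on the opposite strand. The groups did not overlap, but the gap was small. The log2 fold change was −0.31 ± 0.09 (SE; edgeR adjusted p = 0.029), or 19.6% lower. The call was lost with DESeq2 (log2 fold change −0.30, adjusted p = 0.131) and with the GC and length offset (−0.25, adjusted p = 0.0607), within a range from 0.0103 to 0.131. It was lost also without WH8, WH9 or WH10, at −0.27, −0.24 and −0.36 (edgeR adjusted p = 0.0513, 0.284 and 0.106).

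*Cacnb1*, known from skeletal muscle, had 181 and 239 normalized counts in Ctrl and 219 and 221 in miR-128OE, so that the miR-128OE libraries lay between the Ctrl libraries. *Cacnb3* had 636 and 533 in Ctrl and 483 and 568 in miR-128OE, which overlapped. *Cacnb4*, with 70, 79, 50 and 83 counts, overlapped as well. It passed without WH7 (log2 fold change −0.89, edgeR adjusted p = 0.0234) and was at −0.09 without WH8 (edgeR adjusted p = 0.853), so that its size rested on the Ctrl library kept. The 3 did not pass the test with all libraries, at log2 fold changes of 0.08 (−0.01 with total counts), −0.16 and −0.51.

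The 16 subunits that were not tested had at most 24 counts over the 4 libraries together. Besides those already given they were *Cacna1b* (3, 7, 6 and 6 counts) and *Cacna1e* (9, 6, 2 and 7 counts), the N-type and R-type pores known from neurons.

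Across families, the pore-forming genes had 1 higher (7.69%) and 4 lower (30.8%) of 13 tested and a median log2 fold change of −0.31. The 13 include *Cacna1s*, which passed the filter on low counts through the miR-128OE libraries alone and did not pass the test. The auxiliary genes had 2 higher (18.2%) and 3 lower (27.3%) of 11 tested and a median of 0.08, and over all tested genes 16.5% were higher and 15.0% lower. With DESeq2, 2 of 12 pore-forming genes were lower (*Cacna1h* and *Scn10a*, 16.7%) and 0 of 11 auxiliary genes, beside 9.60% of all genes. The difference between these groups was not tested. Per kilobase in Ctrl, the level of *Cacna1c* was 239 ± 60.6 (SD, n = 2), that of *Cacnb3* 146 ± 18.1 and that of *Cacna1g* 136 ± 6.57. The gap between the latter pair depended on the length used, since with the longest coding transcript in place of all exons *Cacnb3* was at 214 ± 26.6 and *Cacna1g* at 165 ± 7.94, farther apart than their spread. In miR-128OE, *Cacna1c* was at 164 ± 2.58 and *Cacna1g* at 153 ± 5.44, and with the longest coding transcript at 264 ± 4.16 and 185 ± 6.58. With that length *Cacnb3* (192 ± 21.9) and *Cacna2d1* (186 ± 0.43) were within the spread of *Cacna1g* in miR-128OE. *Cacnb2* was at 177 ± 6.74 in Ctrl, above *Cacna1g*, so the order after *Cacna1c* depended on the length. *Cacng6* was at 20.98 ± 2.38 in Ctrl and 80.3 ± 11.8 in miR-128OE, where it was within its spread of *Hcn2* (78.8 ± 0.186). The 10 subunits that passed were then set out under every other setting in the plot of log2 fold changes by setting, which shows how far each value moved and where its call was lost.

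**Figure D5:**
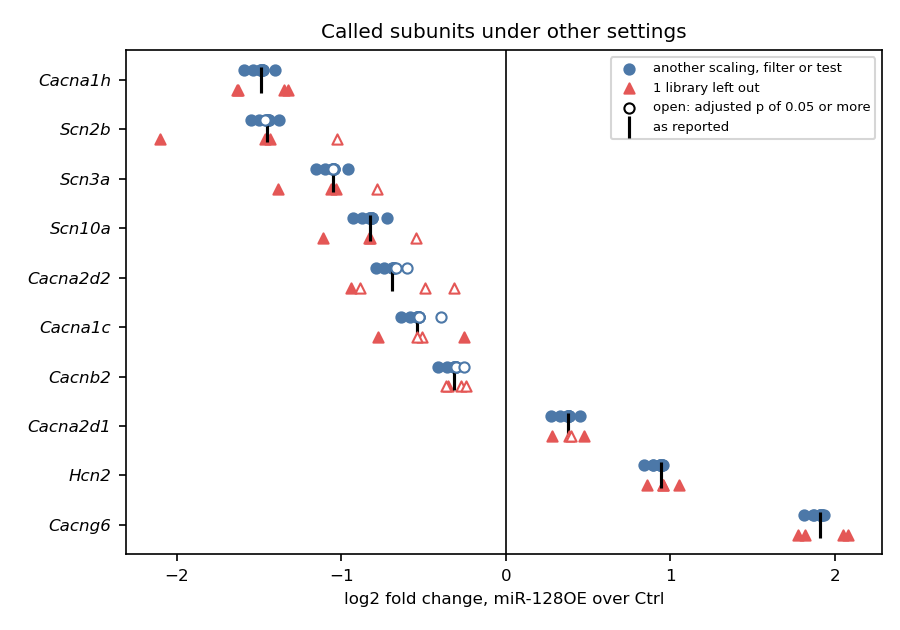
Log2 fold change (x axis) of the 10 subunits that passed the test, under other scalings, filters and tests (blue) and with 1 library left out (red). Open symbols have an adjusted p of 0.05 or more, black bars give the reported value, no symbol crosses 0, and *Cacna1h*, *Hcn2* and *Cacng6* have no open symbol.

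Regulators that act on the L-type channel were read from a list of 19 genes. Of the 18 tested, 6 were higher and none lower in miR-128OE hearts (edgeR, adjusted p under 0.05), and the median log2 fold change was 0.20. *Stac2* is one of the 6, with 6, 2, 34 and 29 counts, and passed the filter on low counts through the miR-128OE libraries alone, where it is high. Without it 5 of 17 were higher (29.4%), beside 16.5% of all tested genes, and 15.0% of all were lower. At an unadjusted p under 0.05 there was 1 lower gene (*Ahnak*), and with DESeq2 0. *Rrad*, a small G protein known to restrain the L-type channel, had 1298 and 1255 normalized counts in Ctrl and 3060 and 2976 in miR-128OE (log2 fold change 1.24 ± 0.08 (SE), edgeR adjusted p = 1.66e-05). *Cav3*, the caveolin of muscle, was higher by 0.85 ± 0.08 (SE), and *Prkaca*, the catalytic subunit of protein kinase A, by 0.71 ± 0.08 (SE). *Gem*, a relative of *Rrad*, and *Sri* were the others besides *Stac2*, at 1.32 and 0.34.

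Among partners of the sodium channel, 2 were higher (14.3%) and 3 lower (21.4%) of 14 tested, near the 16.5% and 15.0% of all tested genes, and the median log2 fold change was −0.05. *Tmem65*, an intercalated disc protein, was higher by 0.78 ± 0.08 (SE), the desmosomal cadherin *Dsg2* lower at −0.60 ± 0.08 (SE), and *Ank3*, which anchors the channel at the membrane, lower at −0.42 ± 0.10 (SE). The others that passed were *Pkp2* (−0.39), of the desmosome, and *Rangrf* (0.34), which aids trafficking of the channel. Among HCN partners and cAMP genes 1 was higher (6.67%) and none lower of 15 tested (0 lower at an unadjusted p under 0.05, 0 with DESeq2), beside the same 16.5% and 15.0%, with a median of 0.00. The higher gene was *Pde4d*, a phosphodiesterase that degrades cAMP, at 292 and 270 normalized counts in Ctrl and 553 and 574 in miR-128OE (log2 fold change 1.00 ± 0.10 (SE), edgeR adjusted p = 0.000228). *Pde4b* (0.26) and *Gnai2* (0.19) came next by p-value and did not pass.

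Calcium handling inside the cell was read from 20 genes. Of these sarcoplasmic reticulum and calcium exchange genes, all tested, 9 were higher (45%) and 5 lower (25%), beside 16.5% and 15.0% of all tested genes, and their median log2 fold change was 0.22. *Casq1*, the calsequestrin of skeletal muscle, had 254 and 205 normalized counts in Ctrl and 1870 and 1617 in miR-128OE (log2 fold change 2.91 ± 0.12 (SE)). *Jph2*, the junctophilin that joins the reticulum to the surface membrane, was higher by 0.97 ± 0.08 (SE), and *Hrc*, a calcium-binding protein of the reticulum, by 0.82 ± 0.09 (SE). *Atp2a2*, the calcium pump, was higher by 0.55 ± 0.10 (SE), and *Ryr2*, the release channel, was lower at −0.40 ± 0.08 (SE). The other lower genes were *Trdn* (−0.61), *Atp2b4* (−0.53), *Itpr2* (−0.51) and *Calr* (−0.51).

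Markers of cell types that a heart library can hold were read beside these values, and their part in the changes of the subunits was not tested. The counts of each list stand beside 16.5% of all tested genes that were higher and 15.0% that were lower. All 10 cardiomyocyte markers were detected in each library, and 5 were higher (50%) and 2 lower (20%) in miR-128OE. *Myh6* was the most abundant, at 174982 and 167705 normalized counts in Ctrl and 216412 and 214673 in miR-128OE. The conduction cell list summed to 8275, 7306, 7806 and 7584 normalized counts in WH7, WH8, WH9 and WH10, with *Igfbp5* the most abundant, and 1 of 11 tested was higher (*Vsnl1*, 9.09%) and none lower by edgeR's quasi-likelihood test. At an unadjusted p under 0.05 there was 1 lower (*Gja5*), and DESeq2 and edgeR's exact and likelihood ratio tests each called 1 lower. Its transcription factor *Isl1* had 7, 1, 1 and 5 counts.

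Neuron and Schwann cell markers were read beside *Scn3a*, *Scn10a* and *Scn2b*, which are known from neurons and were lower. The neuron list summed to 780, 824, 1394 and 1397 normalized counts. *Uchl1*, the most abundant, made up 358, 375, 838 and 891 of these, and the others summed to 422, 449, 556 and 506. Of its genes, 2 of 7 tested (28.6%) were higher (*Uchl1* and *Stmn2*) and none lower by edgeR, with 1 lower at an unadjusted p under 0.05 (*Dbh*) and 0 with DESeq2. *Dbh* had 102 and 112 normalized counts in Ctrl and 56.4 and 84.1 in miR-128OE. The log2 fold change of *Dbh* was −0.59 ± 0.24 (SE) and did not pass the test. *Th*, another gene of the neuron list, was near the floor, with 1, 0, 4 and 2 counts. The Schwann cell list summed to 283, 196, 237 and 288 normalized counts, with *Mbp* the most abundant, and none of its 6 tested genes passed edgeR's quasi-likelihood test. At an unadjusted p under 0.05 there was 1 lower (*Cdh19*) and 0 higher, edgeR's exact and likelihood ratio tests each called 1 lower, and with DESeq2 0 passed. *Cdh19* had 20, 21, 10 and 11 counts and passed the filter on low counts through the Ctrl libraries alone, where it is high.

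The skeletal muscle list, read beside *Cacng6*, *Cacna1s*, *Cacng1* and *Scn4a*, summed to 226, 116, 156 and 126 normalized counts. *Myod1* was at 0 in all libraries, *Myh1*, *Myh2* and *Myh4* had at most 4 counts in a library, and *Myh8* was the most abundant. None of its 4 tested genes was higher by edgeR (0 at an unadjusted p under 0.05, 0 with DESeq2) and 1 was lower (*Tnni2*, 25%). Smooth muscle and pericyte markers summed to 28718, 27446, 33752 and 37642 normalized counts, with 3 higher (*Acta2*, *Abcc9* and *Rgs5*, 27.3%) and 1 lower (*Myh11*, 9.09%) of 11 tested. The log2 fold change was 0.94 for *Acta2*, the most abundant, and −0.64 for *Myh11*, both smooth muscle genes. Endothelial markers summed to 23170, 23339, 24105 and 23077, with *Cdh5* the most abundant and 2 higher and 2 lower of 9 (22.2% each). Fibroblast markers summed to 122042, 78948, 108181 and 116631, lowest in WH8, with *Col3a1* the most abundant and 1 of 9 higher (11.1%). Macrophage markers summed to 1800, 1341, 1322 and 1339, with *Csf1r* the most abundant and 1 of 9 lower (11.1%).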

How the data were processed

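Total RNA of P7 hearts was extracted and sequenced. After quality filtering, the authors aligned the reads with TopHat2 (mm10), assigned them to annotated genes in Bioconductor and deposited the resulting raw counts. The submitters' processing notes also name bcl2fastq and edgeR. Gene models, strand handling and the treatment of multiply matching reads are not given in the sources used here. The 8 tested subunits whose exons overlap another gene are therefore uncertain. They are *Cacna1a*, *Cacna1d*, *Cacna1h*, *Cacna1s*, *Cacna2d2*, *Cacnb1*, *Cacnb2* and *Cacnb4*. All 4 columns of the table belong to samples.

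Entrez Gene identifiers were matched to symbols for 24381 of 24454 genes. edgeR, whose negative binomial model the study's methods name, was used (4.0.16, in R 4.3.3). The settings were chosen here, with filterByExpr defaults (a count of 10, a total of 15), TMM factors and the quasi-likelihood test, with condition as the only term. Benjamini-Hochberg adjustment ran over all 14266 tested genes (threshold 0.05). Standard errors were derived from the fold change and its F statistic. The test was tested on simulated data, where most changed genes were recovered and the false share of the calls was above the threshold. The changes set in that data were larger than several of those called here, and were set in a far smaller share of the genes. The recovery and false share there therefore do not carry over to these calls. Exons, 3′UTRs and coordinates came from GENCODE M21 (GRCm38).

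Of the genes that match the rule or stand in a list, 3 subunits and 4 listed genes are not reported here and enter no count. Every other subunit is named, and those that passed or had an average log2 CPM of at least 3 are given in each library. In partner lists the 3 genes with the smallest p-value are named, and in marker lists the most abundant gene; others were named after their values were seen. The subunits and lists were chosen with earlier results of these data known. Alternatives were other scalings, filters and tests (DESeq2 1.42.0 among them), thresholds, a loess offset (span 0.5) for GC and length, exon lengths, 8mers alone and each library left out. The floor of 3 counts accounts for counting error alone, as PCR reads are not independent molecules.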

Additional observations from a re-analysis of the deposited data

How the results depend on the processing

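Over the 10 other scalings, filters and tests, *Cacna1h*, *Cacng6*, *Hcn2*, *Scn10a* and *Cacna2d1* kept their direction and side of the threshold, and *Cacna1h*, *Cacng6* and *Hcn2* did so without each library too. Lower subunits were 2 of the tested with DESeq2 and 4 with the GC and length offset, in place of 7, where 1320 and 1834 genes were lower in place of 2143. At an adjusted p under 0.01, 2 subunits were higher (8.33%) and 2 lower (8.33%), near the 1264 higher (8.86%) and 1050 lower genes (7.36%). At an adjusted p under 0.05 with a change of at least 1.5-fold, 2 subunits were higher (8.33%) and 5 lower (20.8%). Over all genes 935 were then higher (6.55%) and 1187 lower (8.32%). Leaving out each library gave 2 to 3 higher and 2 to 8 lower subunits, and 897 to 2654 higher and 667 to 2384 lower genes, from fewer libraries. With total counts the median of all genes moved to −0.11, and 1611 genes were higher and 2948 lower in place of 2347 and 2143. With the longest coding transcript as the length, *Cacna1c* took 92.2% of the L-type level in miR-128OE (91.1% with all exons), whereas the share of *Cacnb2* in the calcium channel β subunits went from 20.8% to 38.3% in Ctrl and from 18.6% to 35.0% in miR-128OE. An 8mer alone was found in 1 tested subunit in place of 12.

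Log2 fold changes that turned sign did not pass with all libraries: *Cacnb1* (−0.015 with total counts, −0.12 to 0.28 over the left-out libraries), *Scn4a* (−0.21 to 0.58 over the left-out libraries) and *Scn7a* (−0.013 with upper-quartile factors, −0.066 with total counts, −0.062 to 0.14 over the left-out libraries). The cause was not tested. No paired analysis was possible because the groups share no replicate numbers in the labels, which name the libraries WH7 to WH10 (replicates were numbered in accession order). Under about 24 counts over the libraries, no subunit could be tested.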

Other observations

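Genes that pattern the conduction system were read as a list of 15, of which 14 were tested. Of these, 2 were higher (14.3%) and 5 lower (35.7%) in miR-128OE hearts, beside 16.5% and 15.0% of all tested genes (edgeR's quasi-likelihood test, Benjamini-Hochberg adjusted p under 0.05), with a median log2 fold change of −0.08. *Nkx2-5*, the core cardiac transcription factor, had 558 and 523 normalized counts in Ctrl and 1155 and 1090 in miR-128OE, a log2 fold change of 1.05 ± 0.09 (SE). *Irx3*, a regulator of the ventricular conduction system, had 398 and 486 in Ctrl and 242 and 259 in miR-128OE (log2 fold change −0.81 ± 0.13 (SE)), and its relative *Irx5* was lower at −0.57 ± 0.17 (SE). *Etv1*, known from fast-conducting atrial and Purkinje muscle, was lower at −0.63 ± 0.12 (SE), *Id2* at −0.49 ± 0.13 (SE) and *Mef2c* at −0.42 ± 0.08 (SE). *Hopx* was the other higher gene, at 0.28 ± 0.09 (SE). The gap junction gene *Gja5* (log2 fold change −0.54 ± 0.18 (SE)) and the pacemaker regulators *Tbx3* (0.34 ± 0.14 (SE)) and *Shox2* (0.76 ± 0.30 (SE)) did not pass. *Tbx5* did not pass either, at 611 (WH7) and 257 (WH8) normalized counts beside 699 and 672 in miR-128OE.

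Potassium channel genes, which repolarize the membrane that the sodium and calcium channels depolarize, were counted for comparison. Of 92 autosomal genes whose symbols begin with *Kcn*, 48 were tested. Of these, 8 were higher (16.7%) and 3 lower (6.25%) in miR-128OE hearts by the same test, with a median log2 fold change of −0.01, beside 16.5% and 15.0% of all tested genes and 3 higher and 7 lower of the 24 calcium, sodium and pacemaker channel subunits. The difference between these sets was not tested.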
